A study of Schizosaccharomyces pombe with 2 samples.

Results

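Spliced antisense transcripts are transcript models with at least 1 intron that lie opposite the exons of a protein-coding gene. They were taken from full-length cDNA sequencing (PacBio Iso-Seq) of *Schizosaccharomyces pombe*, as models on chromosomes I, II and III with 2 or more exons, at least 1 nt of exonic overlap with a coding gene on the other strand and no exonic overlap on their own strand, after annotated lncRNA and ncRNA genes had been removed from the reference. This rule found 1281 of 95880 models. Of the members, 66 came from 26057 models of the untreated WT library and 1215 from 69823 models of the pooled library, which is 2.53 and 17.4 members per 1000 models.

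All cells carried the h+ ade6-M216 ura4-D18 leu1-32 background and were grown at 32 °C to mid-log phase (OD600 about 0.5). The WT library held untreated cells of this background. The pool held the same background and its *hrp1*Δ*hrp3*Δ derivative (hrp1del::kanMX hrp3del), which lacks both CHD-family remodelers, each untreated, with 14 mM caffeine or with 200 ng/ml clotrimazole. Caffeine acts on the TOR pathway, and clotrimazole inhibits ergosterol synthesis. Each library was sequenced once, in a run of its own by the study's design text, although the labels give both the same batch, so that genotype, treatment, run and depth cannot be told apart and no test between the libraries was possible. The files list models without read numbers, and the number of reads behind an intron is unknown.

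In fission yeast most introns are short. The spliceosome recognises a 5′ splice site that begins with GT, a branch site near the end of the intron and a 3′ splice site that ends with AG, and all of them are read on the strand that is transcribed. An antisense intron is therefore defined by sequence that also lies in or beside the host gene, in many cases as codons read in the other direction. Cryptic antisense transcription rises in fission yeast when the remodeler Hrp3, which spaces nucleosomes over gene bodies, is lost.

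The members held 735 distinct introns, 57 in WT and 729 in the pool, of which 51 were present in both to the base. The following introns show the signals that recur among them. The first group lay wholly opposite coding sequence, and the whole intron is given on the transcribed strand, with capitals for the terminal GT and AG and for the branch-site-like match nearest to the AG (CTNAC or CTNAT, searched in the last 60 bases of the transcribed strand). Coordinates are those of the deposited models, and sequence was read from the RefSeq genome ASM294v3.
exo1, 53 nt, II:2546588-2546640, minus strand: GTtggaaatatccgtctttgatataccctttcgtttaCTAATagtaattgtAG
exo1, 76 nt, II:2546884-2546959, minus strand: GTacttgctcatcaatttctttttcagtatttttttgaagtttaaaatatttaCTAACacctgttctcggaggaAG
exo1, 72 nt, II:2546888-2546959, minus strand: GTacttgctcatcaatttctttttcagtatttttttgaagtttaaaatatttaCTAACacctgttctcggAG
orc4, 94 nt, II:2027053-2027146, minus strand: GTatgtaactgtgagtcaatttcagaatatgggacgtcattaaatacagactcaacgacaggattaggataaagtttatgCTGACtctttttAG
nrg1, 54 nt, II:4458973-4459026, minus strand: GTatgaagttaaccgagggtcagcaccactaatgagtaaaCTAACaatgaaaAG
meu1, 89 nt, I:3803620-3803708, minus strand: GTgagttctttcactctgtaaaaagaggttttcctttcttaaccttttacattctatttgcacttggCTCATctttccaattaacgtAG
SPAC1952.06c, 46 nt, I:4976204-4976249, plus strand: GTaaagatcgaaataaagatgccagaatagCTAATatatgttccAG
grt1, 43 nt, II:50368-50410, plus strand: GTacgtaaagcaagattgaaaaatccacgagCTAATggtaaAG
taf5, 34 nt, III:641151-641184, plus strand, no match: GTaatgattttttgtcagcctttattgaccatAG
spb70, 61 nt, III:288684-288744, minus strand, no match: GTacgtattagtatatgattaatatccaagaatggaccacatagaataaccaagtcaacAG

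The second group shows the last 30 bases of introns at which neighbouring 3′ splice sites were used or which did not lie wholly opposite coding sequence, and the shortest intron in full. The mcp3 pair shared a 5′ splice site and differed by 4 nt at the 3′ end, as the exo1 introns of 76 and 72 nt did.
mcp3, 230 nt, I:5075534-5075763, plus strand, last 30 bases: cttttgactaatttaCTAACccttcctgAG
mcp3, 234 nt, I:5075534-5075767, plus strand, last 30 bases: tgactaatttaCTAACccttcctgagatAG
crp79, 72 nt, I:1794509-1794580, plus strand, last 30 bases: gtaatgcttgtctCTAATttttcccttcAG
crp79, 54 nt, I:1795577-1795630, plus strand, last 30 bases: gcctatattctttgctaaCTAACtatacAG
psu2, 59 nt, II:3467793-3467851, plus strand, last 30 bases: aatttCTAACcataaacccgaaataattAG
ftm3, 210 nt, I:5565154-5565363, plus strand, last 30 bases: gcgatcgcttgCTAACatttttaataatAG
pnu1, 24 nt, I:4485264-4485287, plus strand, whole intron: GTatgcccaatCTAATtgttatAG

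Splice sites of antisense introns were GT and AG in 56 of 57 introns of WT (98.2%, with 90.6 to 100% as the exact Clopper-Pearson interval at 95%, given for all shares here) and in 704 of 729 of the pool (96.6%, 95 to 97.8%). Among 5205 annotated introns of protein-coding genes the share was 99.4% (99.2 to 99.6%). None of the 735 introns carried the ends of an intron of the other strand, which allows a share of up to 0.408% when the limit of a count of 0 is set at 3 of 735, and 0 matched a host intron to the base. These intervals cover counting error only, and introns of a single locus are not independent of each other. The authors aligned the reads with splice sites sought on the transcript strand, which favours GT and AG ends there. The GT-AG share and the counts of 0 therefore depend in part on the alignment, and its contribution was not tested.

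The 5′ splice sites shared their commonest form with the annotated ones, at a lower share, and departed from them further in the next. Over both libraries GTAAGT opened 21.1% of the GT-AG introns (interval 18.2 to 24.3%) against 27.7% of annotated introns (26.5 to 29.0%). The hexamer GTATGT, which opened 19.9% of annotated introns, opened 6.90% of the antisense ones (5.15 to 9.02%). GTAAGA was present in 9.15% (7.14 to 11.5%) and in 6.55% of annotated introns. An A at the third base was somewhat below the annotated share, with 89.4% (86.9 to 91.6%) against 92.6% (91.9 to 93.3%). A G at the fifth base was found in 78.9% (75.7 to 81.8%) against 88.2% (87.3 to 89.1%).

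At the 3′ splice site TAG closed 51.4% of antisense introns (47.7 to 55.1%) and 68.6% of annotated ones (67.3 to 69.9%). The other 2 common endings took up the difference: CAG closed 24.1% against 18.8%, and AAG closed 23.0% against 12.5%. GAG closed 11 of 710 antisense introns (1.55%) and 7 of 5176 annotated ones (0.135%). A pyrimidine before the AG was thus found in 75.5% (72.2 to 78.6%) of antisense introns against 87.4% (86.5 to 88.3%).

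A branch-site-like match lay in the last 60 bases of 487 of 710 antisense introns, which is 68.6% (65.0 to 72.0%), and of 82.5% (81.4 to 83.5%) of annotated introns. Read on the other strand of the same windows, the share was 50.3% (46.5 to 54.0%) for antisense and 44.2% (42.8 to 45.6%) for annotated introns. The form CTAAC alone was present in 24.1% of antisense introns (21.0 to 27.4%), in 44.6% of annotated introns (43.2 to 45.9%), and on the other strand in 5.35% and 4.06%. The match ended a median of 9 bases before the AG in antisense introns (quartiles 6 and 13) and 8 bases before it in annotated ones (6 and 10). Where a match was present it lay within 20 bases of the AG in 88.7% (85.6 to 91.4%) and 96.4% (95.8 to 96.9%) respectively. In WT alone 43 of 56 introns held a match (76.8%, 63.6 to 87.0%), and in the pool 68.5% did (64.9 to 71.9%). Of the 56 WT introns, 50 were also present in the pool. The sets are therefore not independent, and the overlap of their intervals does not show likeness between the libraries.

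**Figure D1:**
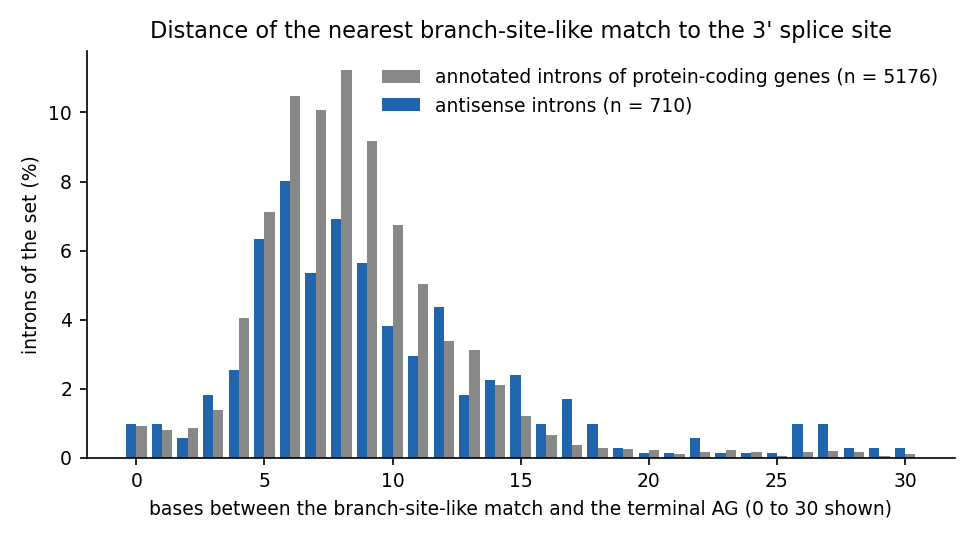
Percent of GT-AG introns (y axis) by the number of bases between the branch-site-like match nearest to the 3′ splice site and the terminal AG (x axis, 0 to 30 bases), for 710 antisense introns of both libraries (blue) and 5176 annotated introns of protein-coding genes (grey). Antisense introns are most frequent at 6 bases and annotated ones at 8 bases, and matches farther than 20 bases from the AG make up more of the antisense set.

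The length of antisense introns was close to that of annotated ones. The median of GT-AG introns was 59 nt in WT (quartiles 48 and 88.2) and 59 nt in the pool (48 and 84), and 56 nt in the annotation (46 and 86). The 95% interval of the median was 58 to 61 nt for antisense introns of both libraries and 55 to 56 nt for annotated introns. Lengths from 40 to 59 nt were the commonest in both sets, with 46.6% of antisense (42.9 to 50.4%) and 50.2% of annotated introns (48.8 to 51.6%). Lengths from 60 to 99 nt held 30.7% (27.3 to 34.2%) against 23.0% (21.9 to 24.2%), and introns of 200 nt or more held 3.94% (2.64 to 5.65%) against 6.61% (5.95 to 7.32%). No annotated GT-AG intron was under 30 nt, and 2 antisense introns were, at 24 nt over pnu1 and at 28 nt over SPBC1652.02.

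**Figure D2:**
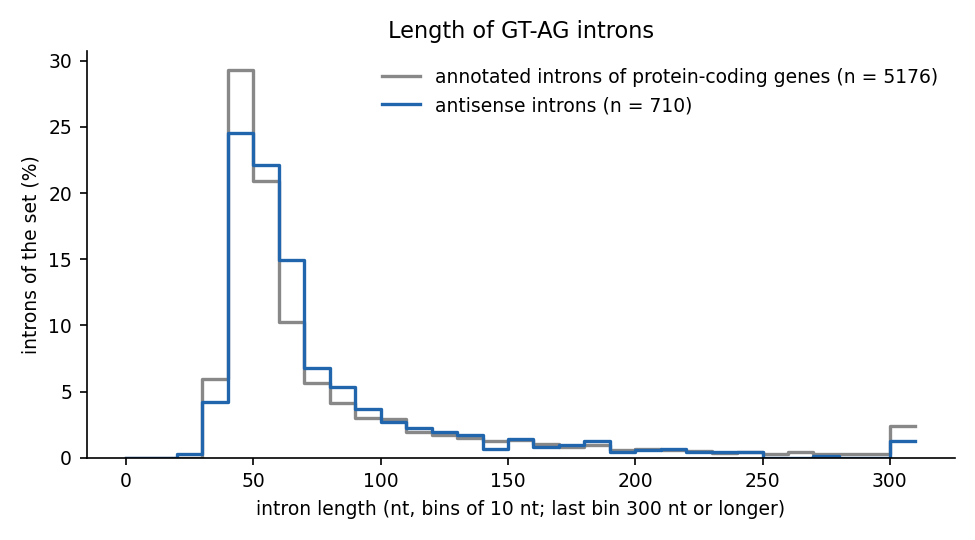
Percent of GT-AG introns (y axis) in length bins of 10 nt (x axis, the longest in the last bin), for 710 antisense introns of both libraries (blue) and 5176 annotated introns of protein-coding genes (grey). The 2 curves rise at the same lengths, and their medians are 59 and 56 nt.

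Antisense introns differed less from their surroundings in base composition than annotated ones did. Their GC content had a median of 32.8% (quartiles 28.3 and 36.9%) against 28.9% (25.4 and 32.4%) for annotated introns, and the 50 exonic bases on each side had 36% and 38%. The intron was below its flanks by a median of -2.88 percentage points in antisense models and -9.32 percentage points in annotated genes. In 67.2% of antisense introns (63.6 to 70.6%) the intron held less GC than its flanks, against 89.0% (88.1 to 89.8%) of annotated introns. The WT introns taken alone gave a median difference of -3.97 percentage points.

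Most members had 1 intron. In WT 60 of 66 models (90.9%, 81.3 to 96.6%) and in the pool 1077 of 1215 (88.6%, 86.7 to 90.4%) held 1 intron, whereas 45.1% of spliced annotated coding transcripts do (43.2 to 47.1%). There were 125 members with 2 introns, 18 with 3 and 1 with 4, the last over ftm3. The antisense strand was less dense in introns than coding genes were, with 0.150 distinct introns per kb covered by antisense models and 0.502 annotated introns per kb of coding gene. The first exon had a median of 305 nt (quartiles 150 and 638) against 911 nt for the last (564 and 1317). It was the shorter of both in 75.3% of members (72.9 to 77.7%). The same order held in 84.2% of spliced annotated coding transcripts (82.7 to 85.7%), whose first exon was shorter, with a median of 185 nt (quartiles 101 and 337). The exons of a member added up to a median of 1399 nt, near the 1406 nt of single-exon antisense models.

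Splicing was rarer among antisense models than among models as a whole. Of all antisense models, 66 of 737 in WT were spliced (8.96%, 6.99 to 11.3%) and 1215 of 9640 in the pool (12.6%, 11.9 to 13.3%), whereas 44.0% and 42.8% of all models were. Distinct introns per 1000 antisense models were 77.3 in WT and 75.6 in the pool. Spliced antisense models started in similar places to single-exon ones in the pool, where 53.8% (51.0 to 56.7%) and 55.6% (54.6 to 56.7%) started opposite coding sequence and 19.6% and 19.8% opposite a 3′ UTR. The share that was spliced was 7.68% of models spanning under 1000 nt (6.36 to 9.16%) and 14.4% of those spanning 2000 nt or more (12.7 to 16.2%), over both libraries.

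Most antisense introns lay opposite a single exon of the host, as did most of the transcript around them. Members were chosen for overlap with host exons, and a median of 91.5% of their exonic length lay opposite exons of coding genes (quartiles 77.6 and 100%). Of the 735 introns, 494 lay inside 1 host exon (67.2%, 63.7 to 70.6%), and 346 of these lay wholly opposite coding sequence, 100 opposite a 3′ UTR, 14 opposite a 5′ UTR and 34 across a border of coding sequence and UTR. A further 85 had an end in a host intron, 7 spanned a host intron whole, 39 had 1 end outside the coding genes of the other strand and 110 had both ends outside them. In WT 33 of 57 introns lay inside 1 host exon (57.9%, 44.1 to 70.9%) and 17 had both ends outside (29.8%, 18.4 to 43.4%), against 67.2% (63.7 to 70.6%) and 15% (12.4 to 17.8%) in the pool. Of the 10 WT introns held by 2 or more models, 20% lay inside 1 host exon (2.52 to 55.6%), and of the 263 such introns of the pool 68.4% (62.4 to 74.0%), under a limit added after the data were seen.

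**Figure D3:**
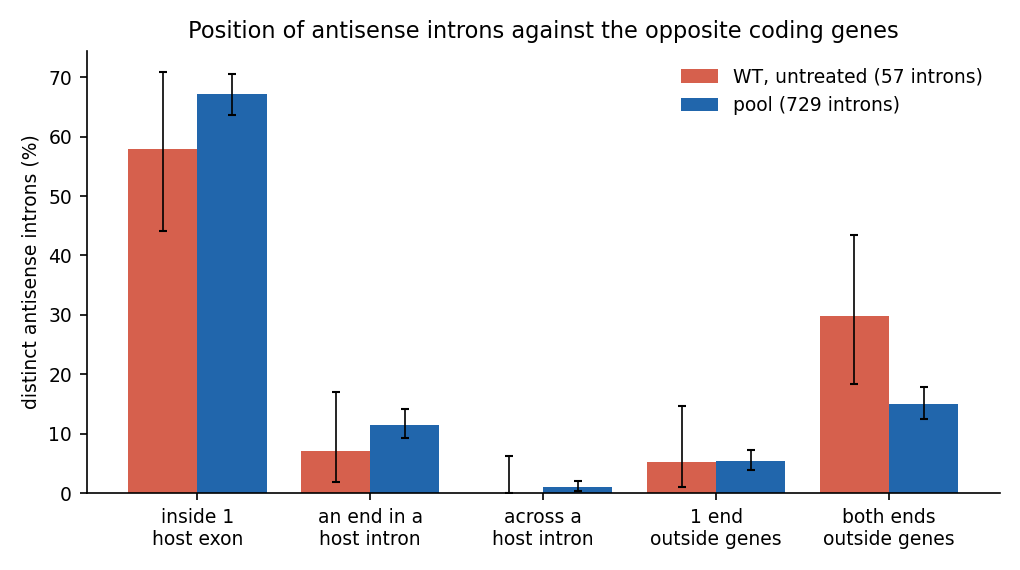
Percent of distinct antisense introns (y axis) by their position against the coding genes of the other strand (x axis), for WT (orange, 57 introns) and the pool (blue, 729 introns), with exact 95% intervals that cover counting error only. Over all introns the class inside 1 host exon is the highest in both libraries, with 57.9% and 67.2%, and introns with both ends outside genes are 29.8% and 15%.

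Within host genes the introns lay more often near the 3′ end of the host, which antisense transcription crosses first. Divided into 10 equal parts from the 5′ end, the last part of the host held 84 of the 494 introns (17.0%, 13.8 to 20.6%) and the first part 23 (4.66%, 2.97 to 6.90%). The length of host covered, summed over the spliced models, was distributed otherwise, with 6.41% in the last part, 7.82% in the first and a maximum of 12% in part 6.

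**Figure D4:**
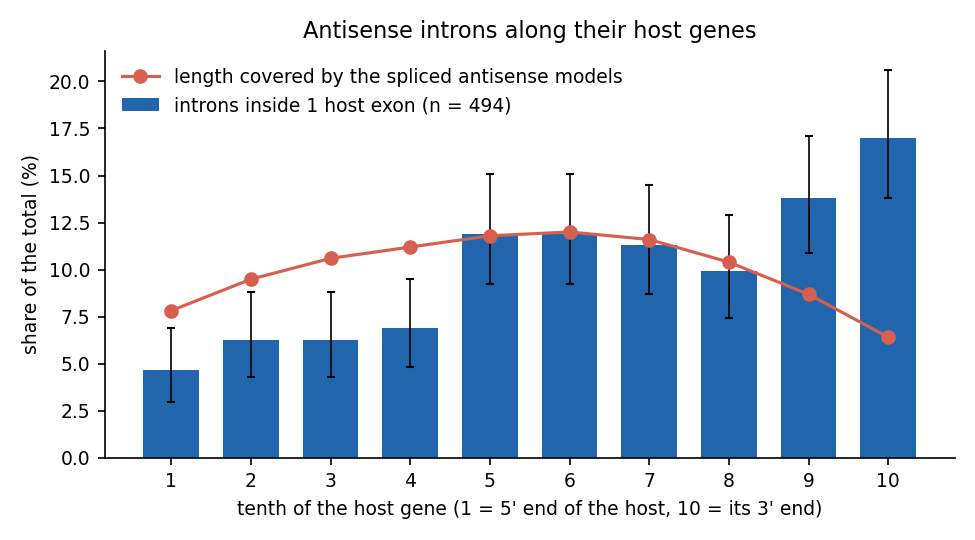
Share of the total (y axis, percent) in each of 10 equal parts of the host gene from its 5′ end to its 3′ end (x axis), for 494 antisense introns inside 1 host exon (bars with exact 95% intervals) and for the host length covered by spliced antisense models (orange points). The introns hold 4.66% in the first part and 17.0% in the last, where the coverage is 6.41%.

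Splice sites inside coding genes fell in host introns in 94 of 1211 cases (7.76%, 6.32 to 9.42%), while introns made up 3.35% of the host bases. Host introns themselves mostly stayed in the antisense RNA. Of 707 pairs of a spliced antisense model and a host intron within it, 536 kept the host intron whole in the model's exons (75.8%, 72.5 to 78.9%). A host intron was counted once for each model over it, and the interval does not cover this dependence. The 7 host introns that an antisense intron spanned were 42 to 67 nt long and belonged to pdc1, ria1, cog6, gid1, mug110, ppk27 and rgf2. The spanning introns were 60 to 185 nt long, apart from the 475 nt intron over ria1, which encodes a GTPase, and each was held by 1 pool model, or by 2 over ppk27.

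Many introns were also left in by other antisense models. An unspliced antisense model of the same library crossed 25 of 56 GT-AG introns in WT (44.6%, 31.3 to 58.5%) and 521 of 704 in the pool (74.0%, 70.6 to 77.2%). Among annotated introns of coding genes, unspliced models of the same strand crossed 33.8% in WT (32.5 to 35.2%) and 73.8% in the pool (72.5 to 75%), near the antisense share there. Only 2.98% of these annotated introns in the pool were held by 1 model, against 63.4% of antisense ones. The likeness is therefore between introns with unlike numbers of models and does not show equal retention. The median share of models crossing an antisense intron that were spliced was 100% in WT (quartiles 50 and 100%) and 50% in the pool (25 and 100%). For annotated introns it was 100% in WT (83.3 and 100%) and 84.6% in the pool (71.4 and 100%). The equal medians in WT do not show likeness. An antisense intron was counted only if a model spliced it, and 47 of 56 in WT were held by 1 model (83.9%, 71.7 to 92.4%). The lower quartiles in WT differed, with 50% for antisense and 83.3% for annotated introns. Unspliced models were the more numerous at 21.4% of antisense introns in WT (11.6 to 34.4%) and 43.0% in the pool (39.3 to 46.8%), against 1.38% (1.06 to 1.76%) and 3.43% (2.95 to 3.97%) of annotated introns. These shares count distinct models and not reads. Most antisense introns rested on few models: 446 of 704 in the pool were held by 1 model (63.4%, 59.7 to 66.9%) and 51 by 5 or more.

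Most hosts and introns of WT recurred in the pool. Of the 53 host genes of WT, 52 were hosts in the pool as well, and the exception was meu31. Hosts of any antisense model numbered 430 in WT, 2839 in the pool and 2844 over both. Nearly all WT hosts of any antisense model thus recurred too, and recurrence is not particular to spliced ones. The pool had 605 hosts of spliced models, 11.8% of 5113 coding genes (11 to 12.7%), against 1.04% in WT (0.777 to 1.35%). Among hosts of any antisense model the shares were closer, with 21.3% in the pool (19.8 to 22.9%) and 12.3% in WT (9.37 to 15.8%). Of the introns shared by both, 38 of 50 with GT and AG ends were held by 2 or more pool models (76.0%, 61.8 to 86.9%), against 220 of 654 introns found in the pool alone (33.6%, 30 to 37.4%). Median lengths were 58.5 nt and 59 nt. An unspliced antisense model of WT crossed 95 of the 654 (14.5%, 11.9 to 17.5%). The 6 introns found in WT alone, over yea6, meu31, abc1, pnu1 with alg8, sfc3 and SPBP8B7.32, were each held by 1 model and were crossed unspliced by 3 to 21 models of the pool.

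Among single hosts, exo1, which encodes a 5′ to 3′ exonuclease of mismatch repair and DNA end resection, had the most antisense introns. No antisense model lay over exo1 (II:2545488-2547971, plus strand, no annotated intron) in WT, and in the pool 12 of 18 were spliced, with 7 introns wholly inside the single exon of the gene. The 76 nt intron was held by 8 models and the 72 nt intron, which ends 4 nt earlier on the same branch-site-like match, by 2, while 3 models crossed them unspliced. The 53 nt intron further along was held by 3 models and left in by 14. Introns of 159 and 155 nt, each in 1 model, joined an earlier 5′ splice site to the same pair of 3′ splice sites, so that both donors were used with both acceptors.

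**Figure D5:**
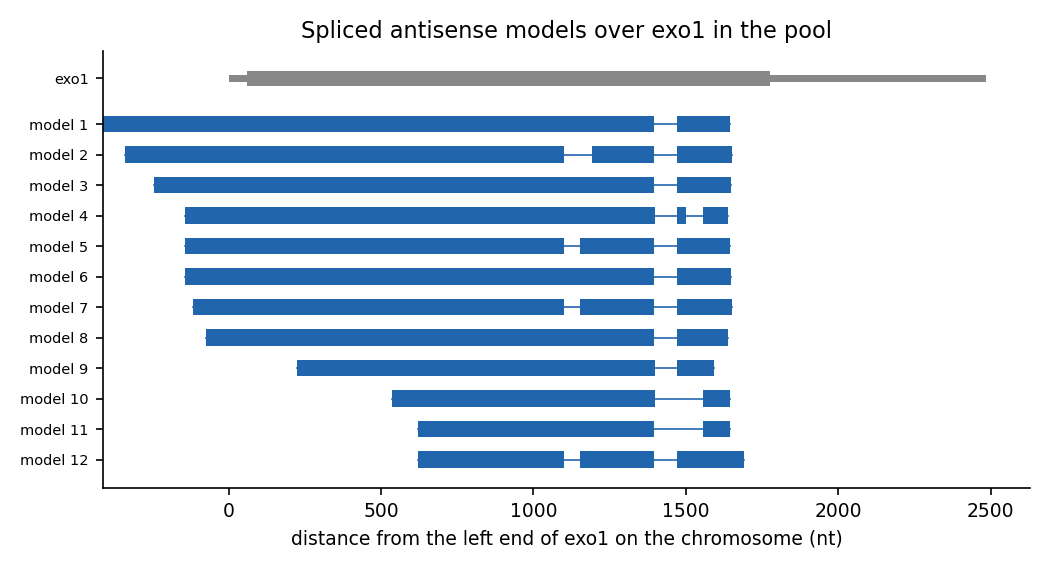
The 12 spliced antisense models over exo1 in the pool (blue, exons as bars and introns as lines) and the host gene (grey, coding sequence thick), drawn to scale against distance from the left end of exo1 in nt (x axis). The host is transcribed from left to right and the antisense models from right to left, and the intron of 76 nt or its 72 nt form is present in all but 2 models.

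Neighbouring 3′ splice sites of this kind recurred. Of 671 5′ splice sites, 36 were joined to 2 or more 3′ splice sites, which lay a median of 16 nt apart (quartiles 4 and 46), and 21 of 689 3′ splice sites were joined to 2 or more 5′ splice sites. Over smd1, a core protein of spliceosomal snRNPs, the donor at 4520840 of chromosome I was joined to 3 acceptors, giving introns of 62, 64 and 68 nt in 3, 2 and 2 pool models. Over mcp3 the introns of 230 and 234 nt were each held by 1 model in WT and by 9 and 5 in the pool, with 8 unspliced models in the pool and 0 in WT. Isoforms whose junctions lay within 100 nt could be merged when the authors collapsed the reads, which can lower the number of alternative splice sites. The accuracy of single junctions was not tested, so the number is not shown to be a minimum.

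Introns present in both libraries included those with the most models. Over crp79, whose product is a poly(A)-binding protein, the 72 nt intron was held by 6 models and left in by 10 in WT, and held by 6 and left in by 13 in the pool. The 54 nt intron downstream was held by 2 and left in by 5 in WT, and held by 3 and left in by 6 in the pool. The crp79 72 nt intron was the only one with 5 or more models in WT, and its spliced share was similar in both libraries. Over nrg1, annotated as an amino-acid permease, the 54 nt intron was held by 2 models and left in by 0 in WT, and held by 8 and left in by 3 in the pool. Over SPAC1952.06c the 46 nt intron had 1 spliced and 0 unspliced models in WT and 7 and 3 in the pool. Over psu2, annotated as a beta-glucosidase, the 59 nt intron had 2 spliced and 1 unspliced models in WT and 8 and 2 in the pool. Over meu1, a meiotically upregulated gene, the order was the other way, with 1 spliced and 9 unspliced models of the 89 nt intron in WT and 8 and 15 in the pool.

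The ftm genes, which encode transmembrane proteins, carried the introns with the most pool models, in subtelomeric copies. Over ftm3 and ftm4 near the right end of chromosome I the 210 nt intron was held by 2 WT and 26 pool models, and over ftm5 and ftm6 near the left end of chromosome II an intron of the same sequence was held by 2 and 16. These introns lie between the paired genes, opposite no coding sequence. Introns of 84 and 101 nt were also identical in sequence between both places, and the assignment of reads to either copy is uncertain. The model with 4 introns, of 54, 249, 101 and 210 nt, lay over ftm3.

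Among the other hosts chosen by rule, splicing ranged from common to rare. Over orc4, a subunit of the origin recognition complex, 8 of 12 pool antisense models were spliced, all with the 94 nt intron, and 3 crossed it unspliced. Over spb70, the B-subunit of DNA polymerase alpha, 5 of 12 were spliced, and over taf5, a TFIID subunit, 3 of 10, in which the intron of 34 nt was left in by 6. Over rap1, which binds telomeres, 1 of 7 was spliced. Over crt10 and atg9, 0 of 6 and 0 of 7 were spliced, and WT held no antisense model over any of these 6 genes. Over grt1, a transcription factor gene, the 43 nt intron was held by 6 pool models and left in by 1. Over SPBC530.11c, also a transcription factor gene, 1 model held 3 introns of 56, 52 and 41 nt opposite coding sequence.

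Some introns crossed by many unspliced models were seldom removed, in hosts that were chosen by that number. Others were removed more often: the 249 nt intron over ftm3 had 11 spliced and 20 unspliced models in the pool. Over cao2, annotated as a copper amine oxidase-like protein, introns of 113 and 47 nt shared a 5′ splice site. The 113 nt intron had 1 spliced and 8 unspliced models in WT and 1 and 20 in the pool. The 38 nt intron beyond the 3′ end of mbx2, a MADS-box factor gene, had 0 and 11 in WT and 1 and 21 in the pool. The longest GT-AG introns were held by few models, as were most introns of the pool, of which 63.4% were held by 1 model. There was 1 pool model for the 546 nt intron over sgt1 and 1 for the 475 nt intron over ria1, against 6 and 9 unspliced. The 456 nt intron over ams2, a GATA-type factor gene, had 2 against 11.

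Genes with and without introns of their own were hosts in like shares. Of 2455 genes with an annotated intron 292 were hosts (11.9%, 10.6 to 13.2%), and of 2658 without, 314 (11.8%, 10.6 to 13.1%). Of 110 mug and meu genes, named for upregulation in meiosis, 14 were hosts (12.7%, 7.14 to 20.4%). Of 141 cytoplasmic ribosomal protein genes 3 were hosts (2.13%, 0.441 to 6.09%), namely rpl1801, rpp21 and rps1201. Any antisense model was found over 25 of the 141. Over all 5113 coding genes 606 were hosts (11.9%) and 2844 had any antisense model. Among genes with any antisense model, 12% of the ribosomal ones were hosts (2.55 to 31.2%), against 21.3% of all (19.8 to 22.9%). Few ribosomal genes thus had antisense models at all, and a lower spliced share among those is not shown. Of 16 wtf genes, a family of meiotic drivers, 4 were hosts (interval 7.27 to 52.4%). Of 8 hexose transporter genes 2 were, ght4 and ght5 (interval 3.19 to 65.1%). Host genes were long, with a median of 2166.5 bp against 1943.5 bp for genes with single-exon antisense models only and 1489 bp for genes with none.

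Most of these transcripts overlapped an annotated non-coding RNA, by any length of exon, and their introns were not annotated there. Of the members 1141 (89.1%, 87.2 to 90.7%) overlapped an annotated lncRNA or ncRNA on their own strand, near the 88.2% of single-exon antisense models (87.5 to 88.8%), and 476 of the 735 introns (64.8%, 61.2 to 68.2%) lay wholly inside an exon of one. None of the introns was annotated in a non-coding RNA gene, which allows a share of up to 0.408% by the same limit of 3 counts, and only 4 introns are annotated in such genes.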

How the data were processed

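Total RNA of the 2 *S. pombe* libraries was sequenced by Iso-Seq. Reads were clustered by the authors (Iso-Seq4) and aligned by minimap2 in its spliced mode, with splice sites sought on the transcript strand. They were reduced to models in each library by TAMA Collapse, which allowed 100 nt of difference at ends and junctions. The deposited files list exon blocks of each model, with a score that was 40 on every model and carries no read support, so the depth is unknown. The labels name the build ASM294v2. Models were compared here with RefSeq ASM294v3.

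Touching blocks were joined, and members were found by exonic overlap with protein-coding exons as in the report. An intron was counted once per library by its ends, and an unspliced model had to reach 10 nt beyond both ends. Position was read from the host annotation. Gene names follow the annotation. Hosts described one by one were chosen by rule: most GT-AG introns, introns in both libraries, most introns in a model, shortest and longest introns, most unspliced models, and genes the study names. The 6 WT-alone hosts, meu31, the 7 spanned host introns, and the Tf2, cwf19, pfl8, nmt1 and rrb1 introns were named after their values were seen. Members and lists were chosen with earlier results of these data known.

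With 1 library per group no test was run. Shares carry exact Clopper-Pearson intervals at 95%, which cover counting error only. Alternatives varied the overlap, own-strand exclusion, joining of blocks, intron limits and the reference. Finding of members was tested on simulated data. Tools were Python (3.11.15), SciPy (1.17.1), NumPy (2.4.6) and Matplotlib (3.10.9).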

Additional observations from a re-analysis of the deposited data

How the results depend on the processing

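The 16 results (8 in each library) were recomputed under 10 settings, 114 values in all, of which 103 stayed within 1.5 times a count or within the interval of a share or median. Keeping lncRNA and ncRNA genes in the reference, where they exclude models on their own strand, lowered the members from 66 to 7 in WT and from 1215 to 133 in the pool, distinct introns from 57 to 8 and from 729 to 81, and host genes from 53 to 7 and from 605 to 70. Requiring an overlap of at least 50% of the exon length raised the pool share with 1 intron from 88.6% to 90.8% and the share inside 1 host exon from 67.2% to 71.5%. A setting added after seeing the data kept introns held by 2 or more models of a library: GT and AG ends were then found in 98.1% of 263 pool introns and 90% of 10 WT introns, and 20% of the 10 lay inside 1 host exon against 57.9% of all 57. The cause of these shifts was not tested, apart from the excluded models. Joining blocks across gaps under 20 nt and leaving out introns over 1000 nt changed no value. No paired analysis was possible because each group has 1 library. Read numbers are unknown, and the 446 pool introns held by 1 model have no second model to set against them.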

Other observations

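Antisense introns that lay wholly opposite coding sequence followed the codon frame of their hosts at the 3′ splice site, with some excess at the middle base. In 202 of 330 GT-AG introns with both ends in a codon of the same gene (61.2%, exact interval 55.7 to 66.5%) the last base of the intron lay opposite the middle base of a host codon, in 25.2% opposite the first and in 13.6% opposite the last. The AG of the antisense strand is a CT in the host. Of all CT pairs in the coding sequence of the 267 hosts 53.7% (53.2 to 54.2%) have their C at the middle of a codon, 26.9% at the first base and 19.4% at the last. The CT pairs thus had the same order of positions, with a somewhat lower share at the middle base. Introns that share a 3′ splice site were counted separately, and the interval for the introns does not cover their dependence. At the 5′ splice site the shares were 38.2%, 31.8% and 30%, and the corresponding AC pairs of the hosts gave 32.7%, 35.0% and 32.3%. The introns themselves showed little preference for a multiple of 3 in length, with 36.7% (31.5 to 42.1%).

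The longest open reading frame of a spliced antisense model had a median of 58 codons (quartiles 44 and 73), and 59 codons (44 and 74) when the introns were left in. It was longer after splicing in 8.35% of members and shorter in 12%, and 119 of 1281 held a frame of 100 codons or more (9.29%, 7.76 to 11%).

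Retrotransposons were among the hosts. An antisense intron of 59 nt with the same sequence lay opposite the coding exon of Tf2-4, Tf2-5, Tf2-11 and Tf2-13, on chromosomes I, II and III, with 1 pool model at each and 0 in WT. These copies are near-identical, so that the assignment of reads to a copy is uncertain.

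Of the 25 introns without GT and AG ends, 6 had GC and AG ends and 6 had GT and TG ends, and 20 were held by 1 model. The GT-TG intron over cwf19, a splicing factor gene, measured 40 nt (I:1102299-1102338) and was present in both libraries, in 7 models. Over pfl8 a GC-AG intron of 258 nt was held by 6 pool models, and over nmt1, a thiamine synthesis gene, a gap of 195 nt with GG and AT ends by 3. Over rrb1 a gap of 588 nt was held by 2 models and lay in a direct repeat of 569 nt of the reference, and 4 of the 25 with rrb1 included had a repeat of 6 nt or more at their ends, against 6 of the 710 GT-AG introns.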
